A study of Bos taurus with 4 samples.

Results

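Some piRNAs of the bovine oocyte are named for more than 1 piRNA cluster, and they are described here. The files give each sequence the names of the clusters it was matched to, a chromosome with a start and an end, with a bracketed note where the match had a mismatch or an added base. Cluster names that overlapped by at least 1 base were merged, which turned 1159 names into 956 separate loci, and a sequence was called shared when its names fell in at least 2 of these. This held for 491439 distinct sequences, 22.1% of the 2219158 distinct sequences with a cluster name and 19.9% of all 2468643 listed sequences. A sequence with names in 1 locus only was the object of comparison, and there were 1727719 of these. No read count entered the choice.

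The study sequenced small RNA of oocytes at the germinal vesicle stage, in which meiosis is arrested in prophase, in 2 input libraries and 2 libraries of RNA recovered with an anti-Tdrkh antibody, called IPs below. The labels give no line, age or treatment, the inputs carry no antibody, and an IP with a control antibody is not analysed here, so RNA held by TDRKH and background of the IP cannot be told apart. Nothing in the labels says that the libraries of a group came from separate animals or pools of oocytes, so the p-values measure the spread between these libraries, which may be technical. Sequences with a name covered 1079364 and 1354003 reads in the inputs and 11138905 and 11060320 in the IPs. Replicate libraries differed by more than counting error over the shared sequences (chi-square per degree of freedom 2.61 in the inputs and 2.13 in the IPs).

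piRNAs are small RNAs that PIWI proteins carry, and they silence transposons in the germ line. They are cut from long transcripts of genomic clusters, which often hold fragments of transposons, and most of them begin with U, read as T in these libraries. In the ping-pong cycle a PIWI protein that is guided by such a piRNA cuts a complementary transcript, and the new 5′ end becomes that of a second piRNA, which pairs with the first over a fixed short stretch at their 5′ ends. The second piRNA then carries A opposite the first U, at position 10. TDRKH binds PIWI proteins through its Tudor domain and takes part in trimming piRNA 3′ ends, and PIWIL3 is a PIWI protein expressed in oocytes of many mammals, though not of mice. A sequence that occurs in many clusters is typical of a repeat. The files name no repeat, strand or position in a cluster for these sequences, so repeats are described by their letters only.

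The 12 sequences below are those shared sequences that were among the 10 most abundant of the inputs or of the IPs. They are printed because they carry the most reads and because they show how few 5′ ends are involved. Capitals mark the first base and the base at position 10.
Sequence A, 26 nt, 2 loci: TcgaattgtGgtgttggagaagactt
Sequence B, 25 nt, 2 loci: TcgaattgtGgtgttggagaagact
Sequence C, 26 nt, 2 loci: TcctataggGtgagggtatagtgggt
Sequence D, 26 nt, 2 loci: TcctataggGtgagggtgcagtgggt
Sequence E, 24 nt, 59 loci: TtttctggaActctcttgcttttt
Sequence F, 26 nt, 104 loci: TctttgtgaCcccatggactgtagcc
Sequence G, 27 nt, 7 loci: GccacaaagAgtcggacacgactgagt
Sequence H, 26 nt, 17 loci: TctttgcgaCcctgtggactgtagcc
Sequence I, 25 nt, 3 loci: TcaacatgaAtctgccacaggtgta
Sequence J, 23 nt, 65 loci: TtttctggaActctcttgctttt
Sequence K, 26 nt, 62 loci: TctttgtgaCcccatggactgtagca
Sequence L, 26 nt, 25 loci: TctttgtgaCcctatggactgcagca
All but G begin with T, and E, G, I and J have A at position 10. The printed numbers of loci include names with a note. By names without a note E keeps 59 loci, J 65, K 39, F 7 and L 1. A, B, C, D, G, H and I have 0 by such names.

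Pairs of abundant shared sequences that are complementary over the first 10 bases of each, with a locus in common, are printed next, with those 10 bases in capitals. They are the pairs in which the less abundant sequence had the most reads, leaving out pairs that repeat a 5′ end already shown.
Pair 1, first, 25 nt, 11 loci: TTTGAGCAAActctggcagatagta
Pair 1, second, 26 nt, 20 loci: TTTGCTCAAActcatgtccattgatt
Pair 2, first, 25 nt, 121 loci: TCTTTGTGACcccatggactgtagc
Pair 2, second, 27 nt, 49 loci: GTCACAAAGAgtcagacatgactgagt
Pair 3, first, 26 nt, 2 loci: TCCTTGAGAAacagcgcacaaaagaa
Pair 3, second, 28 nt, 4 loci: TTCTCAAGGAggaagaaaggacaaactt
Pair 4, first, 25 nt, 4 loci: TGCCAATGCAggagacacaagaaat
Pair 4, second, 26 nt, 4 loci: TGCATTGGCAggcgggttctttatga
Pair 5, first, 19 nt, 17 loci: TCAACATGAAtctgccaca
Pair 5, second, 26 nt, 2 loci: TTCATGTTGAtatatggcaaaacaat
Every one of these 5 pairs has a member with T first and a partner with A at position 10, and in pairs 1, 3, 4 and 5 both sequences have both bases. Pairs chosen for these 10 complementary bases must have A at position 10 opposite a first T. Only the first bases are therefore an observation here. In pair 2 the sequence with T first has C at position 10, while its partner begins with G and has A at position 10.

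Shared sequences spread over many loci and chromosomes. They had a median of 6 loci and at most 445. Of the members, 101195 had 2 loci, 124063 had 3 to 5, 148043 had 6 to 20, 68231 had 21 to 50 and 49907 had over 50. The loci of a member lay on 1 chromosome for 8605 members, 1.75% of all, so neighbouring copies of 1 cluster made up little of the class. Where a member had 2 loci on the same chromosome (8421 members), the median distance between them was 130 kb, and 3189 of these pairs lay within 100 kb. Sharing often rested on inexact matches: 155514 members (31.6%) had a name without a note, against 58.9% of the sequences of 1 locus, and 117890 were named for 2 or more loci by names without a note alone. Most members were rare, as 62.0% were 1 read in all 4 libraries together, against 63.0% of the sequences of 1 locus. All 4 libraries held 15797 members. A further 83942 of the 491439 members were in both IPs and in neither input, and 1394 in both inputs and in neither IP. Of the 1727719 sequences of 1 locus these were 295877 and 5525, similar proportions. Such counts follow the depth of the libraries too.

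Seen from the loci, sharing was the rule. Of the 956 loci, 948 held at least 1 shared sequence, and in the median locus 99.4% of the IP reads named for it were of shared sequences. This share was over 90% in 841 loci and under 10% in 35. The 10 loci with the most IP reads had a lower median, 79.1%, with a range of 24.9% to 99.2% and 4 of them over 90%. Length did not go with this, as the median was 99.3% in the 306 loci of 10 kb or more. At chr6:110174004-110336024, the locus with the most reads, 25.3% and 24.5% of the IP reads and 21.7% and 22.5% of the input reads were shared. At chr23:13851174-14138004 the shares were 47.7% and 46.9% in the IPs and 42.9% and 44.0% in the inputs, and at chr17:62734026-62887012 they were 33.5% and 32.3% in the IPs and 28.8% and 29.2% in the inputs. In these 3 loci both IPs were above both inputs. By contrast, chr24:43000041-43109013 had 99.2% in each IP, and 98.9% and 99.1% in the inputs. The largest loci also recur in the names of members: 55.7% of the members were named for at least 1 of the 3 on chromosomes 6, 23 and 17, and these carried 66.9%, 66.2%, 66.7% and 66.0% of the shared reads in input 1, input 2, IP 1 and IP 2. The files do not say at which of its loci a shared sequence was made. The coordinates are those of the deposited names, and the sources used here give no genome build for them.

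Shared sequences took a larger part of the reads in the IPs. They were 19.55% of the listed reads in input 1 (Wilson 95% interval 19.47% to 19.62%), 19.87% in input 2 (19.80% to 19.94%), 24.08% in IP 1 (24.05% to 24.10%) and 23.38% in IP 2 (23.36% to 23.41%). The IPs did not overlap the inputs, and the means were 23.7% ± 0.489 (SD, n = 2) and 19.7% ± 0.230 (SD, n = 2), a difference of 4.02 percentage points. The exact two-sided permutation test gave p = 0.333, the smallest that 2 libraries against 2 can give. Reads without a cluster name were fewer in the IPs, and sequences of 1 locus were higher there as well, at 73.1% ± 0.440 against 68.6% ± 0.898 (SD, n = 2 each). Within the cluster reads alone, the shared part was 22.02% and 22.63% in the inputs and 24.9% and 24.2% in the IPs, a difference of 2.18 percentage points (exact permutation p = 0.333). These intervals cover counting error only, since the reads include PCR copies.

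By number of loci, all classes but that of 2 loci were higher in the IPs, and on listed reads the exception rested on 4 sequences. Members of 2 loci were 4.65% and 4.48% of the listed reads in the inputs and 4.23% and 4.01% in the IPs, so both IPs lay below both inputs. Members of 6 to 20 loci were 5.07% and 5.11% in the inputs and 6.91% and 6.78% in the IPs. Members of over 50 loci were 2.71% and 3.06% in the inputs and 3.96% and 3.84% in the IPs. In each class from 3 loci upwards both IPs lay above both inputs, and the difference was 0.531 percentage points at 3 to 5 loci, 1.76 at 6 to 20, 1.16 at 21 to 50 and 1.01 over 50, against -0.441 at 2 loci. The exact permutation test gave p = 0.333 for each class. Within cluster reads the order was the same, with -0.910 at 2 loci, 0.131 at 3 to 5, 1.31 at 6 to 20, 0.902 at 21 to 50 and 0.756 over 50. Sequences A to D, which are also the 2-locus members among the 10 most abundant, carried that direction on listed reads. All names of these 4 sequences carry a note. Without these 4, of 101195 members of 2 loci, the class was 3.41% and 3.31% of the listed reads in the inputs and 3.55% and 3.46% in the IPs, a difference of 0.150 percentage points with both IPs above both inputs. Within cluster reads the class without these 4 was still lower in the IPs, with a difference of -0.180 points (3.84% and 3.76% in the inputs, 3.67% and 3.58% in the IPs). Without the 10 most abundant members the differences of the other classes were 0.539, 1.75, 1.16 and 0.978 points in the same order.

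Shared reads were slightly shorter than reads of 1 locus. The mean length of shared reads was 25.04 and 25.06 nt in the inputs and 24.92 and 24.80 nt in the IPs, and that of 1-locus reads was 25.25, 25.27, 25.17 and 25.08 nt in the same order. The difference, shared minus 1 locus, was negative in 4 of 4 libraries and averaged -0.238 ± 0.0317 nt (SD, n = 4). An exact two-sided sign-flip permutation test over these 4 differences gave p = 0.125, the smallest it can give. It gave the same p for each of the 12 comparisons of shared with 1-locus reads that were made, and the Benjamini-Hochberg adjusted value was 0.125 too. Short reads of 18 to 22 nt were 13.9% and 14.0% of the shared reads in the inputs and 16.2% and 17.6% in the IPs, against 9.99%, 10.3%, 12.1% and 13.2% of 1-locus reads. Reads of 28 to 36 nt were 7.87%, 8.48%, 8.55% and 8.17% of the shared reads and 10.03%, 10.87%, 11.55% and 11.11% of the 1-locus reads. Both kinds held more reads of 18 to 22 nt in both IPs than in both inputs (exact permutation p = 0.333 each).

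The most common length was 26 nt for shared reads, which made up 29.8% of them in the inputs and 25.7% in the IPs (means of 2 libraries), against 24.9% and 21.7% of 1-locus reads. A short sequence can match more loci by its length alone, and among distinct sequences the shared fraction was 23.6% at 18 nt, 24.1% at 22 nt, 22.1% at 25 nt, 19.3% at 28 nt and 23.99% at 36 nt. It was between 23.1% and 24.1% at 18 to 23 nt, lowest at 29 nt with 18.9%, and near 19% from 28 to 31 nt. The part of length in the number of loci was not tested. Members of over 50 loci were the shortest, with means of 24.45 and 24.46 nt in the inputs and 24.28 and 24.10 nt in the IPs. Of their reads, 19.9% in each input and 24.1% and 26.7% in the IPs were of 18 to 22 nt.

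A first T was common in both kinds and a little more common in shared reads. It began 89.2%, 90.1%, 89.6% and 88.7% of shared reads in input 1, input 2, IP 1 and IP 2, and 87.3%, 88.1%, 88.3% and 87.5% of 1-locus reads. Shared reads were higher in 4 of 4 libraries, by 1.61 ± 0.425 percentage points (SD, n = 4, exact sign-flip permutation p = 0.125). The difference was 1.948 and 2.003 points in the inputs and 1.28 and 1.20 in the IPs. It did not hold for every class by number of loci. Members of 6 to 20 loci had 85.5%, 87.0%, 87.4% and 86.6%, below the 1-locus reads in each library. Those of 21 to 50 loci had 87.5%, 88.4%, 86.8% and 86.0%, above the 1-locus reads in both inputs and below them in both IPs. Members of over 50 loci had 92.4%, 92.9%, 92.1% and 91.3%.

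A at position 10 set shared reads apart more than the first base did. It was found in 48.3% and 47.7% of shared reads in the inputs and in 50.5% and 50.1% in the IPs. In 1-locus reads it was found in 38.9%, 38.7%, 39.4% and 38.9%. The difference was 10.2 ± 1.17 percentage points (SD, n = 4) and positive in 4 of 4 libraries (exact sign-flip permutation p = 0.125). It was 9.41 and 8.90 points in the inputs and 11.1 and 11.2 in the IPs. With each library's shared reads weighted to the lengths of its 1-locus reads, the difference averaged 10.99 points, and without the 10 most abundant members 12.3 points. Counted over distinct sequences in place of reads it was 11.3 points.

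A first T and an A at position 10 are not independent marks, so A at position 10 was also counted apart by first base. Among shared reads without a first T, A at position 10 was found in 49.0%, 47.8%, 49.9% and 48.5%, against 36.3%, 35.4%, 36.2% and 35.4% of 1-locus reads without a first T. Among shared reads with a first T it was found in 48.2%, 47.6%, 50.6% and 50.3%, against 39.2%, 39.2%, 39.9% and 39.4%. The excess over 1-locus reads was thus present on both sides, at 13.0 ± 0.575 and 9.75 ± 1.25 percentage points (SD, n = 4 each, exact sign-flip permutation p = 0.125 each). Shared reads also had more A at position 9, with a mean of 39.2% in the inputs and 40.8% in the IPs against 26.84% and 27.96% of 1-locus reads. At position 11 they had less, 11.7% and 12.8% against 20.1% and 21.98%. Of positions 9, 10 and 11, position 10 held the most A in both kinds. The gap between the kinds was as wide at other positions, however: at position 18, A was in 39.6% and 39.1% of shared reads against 25.01% and 25.31% of 1-locus reads.

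Members of 2 loci did not share this excess. A at position 10 was in 31.9% and 30.7% of their reads in the inputs and 37.9% and 38.1% in the IPs, below the 1-locus reads of the same library in all 4. Sequences A to D, which have G at position 10, weighed on that value: without the 10 most abundant members it was 43.5%, 41.5%, 45.1% and 44.2%, above the 1-locus reads in all 4. In the classes with more loci it was 52.0%, 50.4%, 53.2% and 52.3% at 3 to 5 loci, 46.5%, 46.0%, 48.2% and 47.9% at 6 to 20, and 55.0%, 54.5%, 53.1% and 52.0% at 21 to 50. It was highest over 50 loci, at 66.4% and 64.6% in the inputs and 62.0% and 61.7% in the IPs. In the 2 classes from 21 loci upwards the IPs were thus lower than the inputs, the opposite of the classes below.

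Complementary sequences were far more common among shared piRNAs. A listed sequence that contained the reverse complement of at least 18 bases was found for 356761 of 491439 members (72.6%) and for 17.1% of the sequences of 1 locus. By reads this was 75.9%, 78.1%, 82.7% and 82.4% of shared reads against 17.0%, 16.7%, 18.5% and 18.2% of 1-locus reads. Sequences of which 1 base or 1 repeated dinucleotide fills at least 60% were rare, at 0.448% and 0.413% of the distinct sequences of the 2 kinds. A member can meet a complement at any of its loci, so the 2 kinds do not have an equal opportunity to show one.

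The distance between complementary 5′ ends was then measured for the 7376 members and 23524 sequences of 1 locus with at least 5 RPM (reads per 1000000 listed reads) in a library. A partner was a sequence of the same kind with a locus in common whose 5′ end lay a set number of bases inside the complement, with 10 bases paired. For members, 3706 (50.2%) had a partner whose 5′ end overlapped theirs by 10 bases. At overlaps of 11 to 20 bases the percentage was between 1.25% and 9.52%, with a median of 4.96%. The overlap of 10 bases therefore stood far above the other 10 distances. For 1-locus sequences it was 7.73%, against 0.659% to 1.72% at the other distances. With any cluster sequence allowed as a partner, the percentages at 10 bases were 59.2% and 24.3%, against 4.49% to 15.0% and 3.52% to 6.89%. By reads, members with a partner at 10 bases held 70.1% and 70.8% of the reads of such members in the inputs and 68.5% and 67.3% in the IPs. Members of more loci have a locus in common with another member more easily, and the percentage with a partner was 39.2% at 2 loci and 59.5% over 50.

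The bases at positions 1 and 10 went with the partners. Of the 3479 members with T first and A at position 10, 65.7% had a partner at 10 bases. Of the 3083 with T first and another base at position 10, 36.7% had one. Of the 420 without T first but with A at position 10, 56.4% had one, and of the 394 with neither, 13.2%. A partner pairs its position 10 with the first base of the other, so these counts follow in part from most sequences beginning with T.

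The printed pairs show the levels on both sides. In pair 1 the first sequence stood at 255.7 and 364.8 RPM in the inputs and 458.4 and 468.3 in the IPs, and the second at 315, 261, 461 and 337. In pair 2 the sequence with T first stood at 145, 166, 317 and 285 RPM and its partner, with G first, at 144, 109, 310 and 290. Both sides of pair 2 were at similar levels, and for each the IPs lay above the inputs. In pair 3 the sequences stood at 473, 462, 539 and 424 RPM and at 228, 191, 306 and 263, and in pair 4 at 328, 409, 534 and 503 RPM and at 188, 186, 198 and 215. In pair 5 they stood at 102, 109, 192 and 205 RPM and at 77.8, 131, 176 and 188. In pairs 1, 4 and 5 and in the second sequence of pair 3 both IPs were likewise above both inputs, while the groups overlapped for the first sequence of pair 3. On listed reads the median log2 change of all single sequences tested below was 0.70, so higher levels in the IPs were usual. Other scalings are not given for the pairs.

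Many abundant members are forms of a few 5′ ends, and members were therefore also grouped by their first 12 bases. The families that begin with TCTTTGCGACCC and TCTTTGTGACCC held 3354 and 3496 members named for 607 and 539 loci in all. The first stood at 8828 and 9852 RPM in the inputs and 11906 and 10888 in the IPs, and the second at 7071, 9006, 11252 and 10628. A family that begins with GTCACAAAGAGT, whose first 10 bases are complementary to the first 10 of the second family, held 2182 members named for 499 loci and stood at 1122, 1275, 2649 and 2732 RPM. In these 3 families both IPs were above both inputs, and the complementary family had the largest ratio, at 1.17 on the log2 scale against 0.29 and 0.44. The median log2 change of all single sequences tested below was 0.70, above the ratios of the first 2 families and below that of the third, so a scaling that sets this median near 0 turns the direction of the first 2. The family of sequences A and B, TCGAATTGTGGT, held 407 members of 34 loci at 11262, 10273, 8474 and 7136 RPM, and that of C and D, TCCTATAGGGTG, held 393 members of 15 loci at 9469, 10366, 6021 and 5127 RPM. These 2 families of few loci were below the inputs in both IPs. The family of E and J, TTTTCTGGAACT, with 1037 members of 159 loci, overlapped between the groups at 4727, 5904, 5254 and 5033 RPM. The ratios are descriptions, with no test, since the families were made after the data were seen.

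In each of the 8 most abundant families, members of 18 to 22 nt had a higher ratio of IP to input than members of 26 nt. The ratio did not fall at every step of length in any of them, and the 18 to 22 nt class had the highest ratio in 6 of the 8. In the family TCGAATTGTGGT, members of 26 nt had a mean of 5628 ± 241 RPM in the inputs and 2731 ± 378 in the IPs (SD, n = 2 each), and those of 25 nt 2914 ± 340 and 2069 ± 324. Members of 18 to 22 nt with the same 5′ end stood at 1405 ± 72.1 RPM in the inputs and 1919 ± 144 in the IPs, a log2 ratio of 0.45, which is below the median change of all sequences. The mean length of its members was 24.85 nt in the inputs and 24.03 nt in the IPs. In TCCTATAGGGTG the log2 ratio was -1.30 at 26 nt and -0.26 at 18 to 22 nt, and in TCTTTGTGACCC it was 0.35 at 26 nt and 0.85 at 18 to 22 nt. In TTTTCTGGAACT it was 0.46 at 18 to 22 nt, -0.30 at 23 to 24 nt and 0.13 at 25 nt, and in TTCTTTGGGATT 0.86 at 18 to 22 nt, -0.26 at 25 nt and 0.51 at 26 nt. The mean length was lower in the IPs in all 8 families, as it was for shared and for 1-locus reads as a whole. With the sequences of 1 locus counted too, the family TCCTATAGGGTG stood at 12193 ± 305 RPM at 26 nt in the inputs and 4650 ± 614 in the IPs (SD, n = 2 each).

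Single sequences were compared between IPs and inputs with edgeR's quasi-likelihood test on the reads, with all listed reads as library size. Sequences of every kind with at least 10 RPM in at least 2 libraries entered it, 11786 in all. Among them were 2829 shared sequences, 0.576% of the members, with 55.8% of the shared reads of the inputs and 62.1% of those of the IPs. Of these 2829, 652 passed on the IPs alone and 196 on the inputs alone, and such sequences had to differ, so the counts describe the abundant members and no more. At a Benjamini-Hochberg adjusted p under 0.05, 1370 shared sequences rose in the IPs (48.4%) and 213 fell (7.53%). Over all sequences tested 41.9% rose and 19.9% fell. Their median log2 change was 0.82, and that of all sequences 0.70. Sequences of 1 locus rose in 3421 of 8196 cases (41.7%) and fell in 1657 (20.2%), and the 761 without a cluster name rose in 152 cases and fell in 470.

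The split between risen and fallen depends on the scaling. TMM factors moved the median of all sequences from 0.70 to 0.02 and that of the members to 0.15. Over all 11786 sequences 667 then rose and 2727 fell. Of the 2829 shared sequences, 186 rose (6.57%) and 295 fell (10.4%). DESeq2 with its own size factors called 198 risen and 2615 fallen over all sequences, and with listed reads 2969 and 2277. Of shared sequences, the former gave 59 and 268 and the latter 852 and 200. The IP libraries also weighed on the count of risen sequences, which was 500 without IP 1 and 339 without IP 2. The fallen ones were 184 and 183 without these. Positive log2 changes well under the median of 0.70, among them those of sequences F, H, J and L, became negative with TMM factors.

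By the number of loci, 182 of 445 tested members of 2 loci rose (40.9%) and 64 fell (14.4%), shares near the 41.9% and 19.9% of all sequences. Of 763 members of 6 to 20 loci 400 rose (52.4%) and 23 fell (3.01%), and over 50 loci 262 of 506 rose (51.8%) and 40 fell (7.91%). The exactness of the names divided both kinds. Of the 1527 tested members with a name without a note, 794 rose and 22 fell, and of the 1302 whose names all had a note, 576 rose and 191 fell. Of 1-locus sequences, 2970 of 5770 with a name without a note rose and 158 fell. Of the 2426 with noted names alone, 451 rose and 1499 fell, and their median log2 change was -2.26. With exact names, then, shared and 1-locus sequences rose in similar proportions (52.0% and 51.5%), and the fallen 1-locus sequences were mostly inexact matches. Of the 497 members of 18 to 22 nt, 306 rose (61.6%) and 9 fell (1.81%), beside 62.8% and 5.23% of the 842 1-locus sequences of that length. Of the 138 members without a first T but with A at position 10, 93 rose (67.4%) and 19 fell (13.8%), beside 45.1% and 22.3% of 368 such 1-locus sequences. The difference between the kinds was not tested.

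Sequence A stood at 5399 and 5209 RPM in the inputs and 2934 and 2396 in the IPs, named for chr16:49598384-49603994 and chr17:62734026-62887012 by names that all carry a note. It fell by 0.99 ± 0.20 on the log2 scale (SE, edgeR adjusted p = 0.00014). Without IP 2 the adjusted p was 0.0511. Sequence B is A without its last base and stood at 2829, 2474, 2170 and 1710 RPM, and its change of -0.45 did not pass (edgeR adjusted p = 0.0584). B passed as a fall with cluster reads as library size (-0.58, edgeR adjusted p = 0.0218) and with TMM factors (-1.14, edgeR adjusted p = 3.15e-05). Without input 2 its change was -0.54. Both IPs were below both inputs for A and for B.

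Sequence C, named for chr19:63960001-63978019 and chr2:59556283-59565020, stood at 2525 and 2596 RPM in the inputs and 1013 and 836 in the IPs. It fell by 1.47 ± 0.21 on the log2 scale (edgeR adjusted p = 5.03e-07). Sequence D, named for chr14:4891038-5053723 and the same locus of chromosome 2, stood at 1591, 1453, 629 and 574 RPM and fell by 1.34 ± 0.21 (edgeR adjusted p = 2.78e-06). C and D share their first 17 bases.

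Of the sequences of many loci among the 12, K rose in the IPs and E, F and J did not pass the test. Sequence E, all 59 of whose loci have a name without a note, stood at 1256 and 1707 RPM in the inputs and 1265 and 1104 in the IPs, a log2 change of -0.32 ± 0.21 (edgeR adjusted p = 0.18), and passed as a fall without input 1 (-0.53, adjusted p = 0.0179) and with TMM factors (-0.995, adjusted p = 0.000134). Its shorter form J stood at 620, 912, 813 and 754 RPM, with a change of 0.03 (edgeR adjusted p = 0.907) that was a called fall with TMM factors (-0.64, adjusted p = 0.0156). Sequence F, of 104 loci on 29 chromosomes but 7 loci by names without a note, stood at 913, 1227, 1353 and 1192 RPM. Its change was 0.25 ± 0.21 (edgeR adjusted p = 0.302), and 0.48 without input 2. The groups overlapped for E, F and J. Sequence K differs from F in its last base and stood at 500 and 773 RPM in the inputs and 1110 and 1036 in the IPs. It rose by 0.75 ± 0.22 on the log2 scale (edgeR adjusted p = 0.00556), with an adjusted p of 0.103 without IP 1 and 0.0667 without IP 2, and its change under TMM factors was 0.09.

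Sequence L stood at 488, 685, 832 and 760 RPM, with both IPs above both inputs and a change of 0.44 ± 0.22 that did not pass (edgeR adjusted p = 0.0821), though it passed without input 2 (0.71, adjusted p = 0.00695). Sequence H stood at 861, 914, 1096 and 872 RPM and sequence I at 842, 888, 856 and 729, and the groups overlapped for both. Both were called fallen with TMM factors (edgeR adjusted p = 0.0467 for H and 0.0016 for I). Sequence G, which begins with G and has A at position 10, stood at 1138, 997, 1156 and 965 RPM, a change of -0.01 (edgeR adjusted p = 0.972). It was called fallen with TMM factors (-0.70, edgeR adjusted p = 0.00831). With any cluster sequence of at least 5 RPM in a library allowed as a partner over 10 bases, G had 13 partners, which together averaged 133 RPM in the inputs and 23.7 in the IPs. The 5′ end that F, K and L have in common had 123 such partners, with 1535 RPM in the inputs and 3391 in the IPs.

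The 5 tested members with the most loci are of 18 to 21 nt. By names without a note they have 3 to 11 loci. The sequence of 301 loci is shown with that of 257 loci and 20 nt because they are the most abundant of these, with capitals at positions 1 and 10.
301 loci, 21 nt: TctttgcgaCcccatggacta
257 loci, 20 nt: TtggaaaagAccctgatgct
The first stood at 9.26 and 17.0 RPM in the inputs and 37.9 and 38.2 in the IPs and rose by 1.503 ± 0.370 on the log2 scale (edgeR adjusted p = 0.00112, and 0.0501 without IP 2). The second stood at 13.0, 15.5, 38.3 and 49.7 RPM and rose by 1.62 ± 0.36 (edgeR adjusted p = 0.000367, and 0.056 without IP 2). With TMM factors the first did not pass (0.84, edgeR adjusted p = 0.0862) and the second did (0.94, edgeR adjusted p = 0.0426). With DESeq2's own size factors neither passed (0.88 and 0.98, DESeq2 adjusted p = 0.212 and 0.122). The other 3 of the 5 with the most loci, of 18, 18 and 19 nt and 275, 269 and 257 loci, stood at 0.926 to 5.56 RPM in the inputs and 10.1 to 15.2 in the IPs. They entered the test through the IPs alone, so that they had to differ, and no p is given for them. Both IPs were above both inputs for all 5.

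The largest changes belonged to rare sequences. The 5 largest rises stood at 0 RPM in input 1 and at 1 or 2 reads in input 2, and at 10.8 to 14.3 RPM in the IPs. The first of them, with 3 loci, had 0 and 1 reads in the inputs and 145 and 149 in the IPs, a ratio of 32.2 of RPM with an exact 95% counting interval of 5.74 to 1277. The largest fall is unlike the other members in letters, and is printed for that with capitals at positions 1 and 10.
Largest fall, 18 nt, 4 loci: CtcccgcctTttttttct
It stood at 76.9 and 48.0 RPM in the inputs, from 83 and 65 reads, and at 1 read in each IP. It was 675-fold lower in the IPs, with an exact 95% counting interval of 184 to 5626. A variant of it with 4 loci had 35 reads in each input and 2 and 0 in the IPs, 319-fold lower (85.2 to 2688). The other 3 of the 5 largest falls are 26-nt sequences of 22 loci that differ from each other at few bases. They stood at 13.0 to 19.5 RPM in the inputs and 0.449 to 1.17 in the IPs, with log2 changes of -4.46, -4.28 and -4.10. The 5 largest rises entered the test through the IPs alone and these 5 falls through the inputs alone, so their size is a description and no p is given. The intervals cover counting error only, not the spread between libraries or the choice of the largest changes, so they are no test. All names of these 5 fallen sequences carry a note. Of the 5 largest rises, the sequence of 137 loci has 5 names without a note among 192, and the others have 0.

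Adding up the sequences that are named for exactly the same loci uses more of the rare members. There were 237084 such sets of 2 or more loci, of which 12361 entered the edgeR test, with 84.5% of the shared reads of the inputs and 86.7% of those of the IPs. Among them 2050 sets rose (16.6%) and 1222 fell (9.89%), and over all 13248 sets tested, those of 1 locus included, 16.3% rose and 9.69% fell. A set could enter the test through the IPs alone or the inputs alone, and such sets had to differ. How many did so was not counted, so these counts describe the tested sets and no more. The shares for sets of several loci are near those of all sets, of which they are most. With TMM factors, 678 of all 13248 sets rose and 1522 fell. Among the sets of 2 or more loci, 663 rose and 1415 fell. Without IP 1, 225 rose and 157 fell, and without IP 2, 128 and 143. By number of loci, 156 of 1536 sets of 2 loci rose and 233 fell, 363 and 312 of 2391 sets of 3 to 5, 633 and 278 of 3669 sets of 6 to 20, and 898 and 399 of 4765 sets of over 20. With listed reads as library size, sets of 2 loci were thus the only ones of these 4 classes in which more sets fell than rose. Their median log2 change was nevertheless positive, at 0.26. The classes were not counted with TMM factors.

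The set with the most reads, of the 2 loci of sequence A and with 19 sequences, stood at 8853 and 8297 RPM in the inputs and 5912 and 4818 in the IPs and fell by 0.68 ± 0.10 on the log2 scale (edgeR adjusted p = 2.39e-06). Sets 2 and 3, those of sequences C and D, fell too, with log2 changes of -1.28 and -1.07 (edgeR adjusted p = 2.47e-11 and 2.63e-09). A set of 6 loci holds 6 shorter forms of the same 5′ end as A, the most abundant of 21 nt, and is printed for comparison with A, with capitals at positions 1 and 10.
21 nt, 6 loci: TcgaattgtGgtgttggagaa
This set stood at 712 and 717 RPM in the inputs and 1326 and 1175 in the IPs and rose by 0.81 ± 0.14 on the log2 scale (edgeR adjusted p = 2.03e-05), by 0.46 with TMM factors (adjusted p = 0.059). Its loci include both loci of A.

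Of the other sets with the most reads, a set of chr3:90982081-91157012 and chr8:17572022-17640997 held 194 sequences and stood at 2057, 2000, 2189 and 1953 RPM (change 0.03, edgeR adjusted p = 0.885). The set of sequence E fell by 0.40 ± 0.14 on the log2 scale (1365, 1818, 1285 and 1125 RPM, edgeR adjusted p = 0.0258). That call was lost without input 2 (adjusted p = 0.32), IP 1 (0.143) or IP 2 (0.434), and in a fit with a replicate block (0.0506). A set of 2 loci, chr1:94550396-94556945 and chr6:110174004-110336024, held 762 sequences, the first sequence of pair 3 among them. It stood at 1327, 1165, 1147 and 1012 RPM (change -0.21, edgeR adjusted p = 0.261), and 87.9% of its reads had A at position 10. This set was called fallen with TMM factors (-0.56, edgeR adjusted p = 0.0144). A set of 3 loci on chromosomes 21, 23 and 6 held 322 sequences, with A at position 10 in 96.5% of its reads, and stood at 1301, 1182, 1362 and 1070 RPM (change -0.03, edgeR adjusted p = 0.899). In the set of 762 sequences both IPs lay below both inputs, and in that of 322 sequences the groups overlapped. By contrast, A at position 10 was in 0.00143% of the reads of the set of sequence A. A further set of 3 loci, on chromosomes 14, 2 and 4, held 37 sequences. It stood at 1259, 1432, 1153 and 986 RPM (change -0.33, edgeR adjusted p = 0.061), with both IPs below both inputs.

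The 5 sets with the largest rises had no read in either input and 162 to 178 reads in the IPs. Against a floor of 3 reads over both inputs (1.23 RPM) they were at least 5.92-fold to 6.50-fold higher in the IPs. Of the largest falls, a set of 3 loci with 27 input reads had none in the IPs and was at least 82.1-fold lower there against a floor of 3 reads over both IPs (0.135 RPM). The set of the fallen 18-nt sequence printed above stood at 120 and 87.1 RPM in the inputs and 0.269 and 0.0904 in the IPs, from 248 reads in the inputs and 4 in the IPs.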

How the data were processed

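Small RNA of germinal vesicle oocytes was sequenced in 2 input and 2 anti-Tdrkh IP libraries. The deposited files hold raw read counts per distinct sequence with the names the unitas tool gave it, per the file headers. No source used here gives the aligner settings or the genome build. The listed sequences all have a name, so totals are of annotated reads. From these counts RPM were computed over listed reads. A row held cluster names or other names, never both (0 rows). Members, lists and tests were chosen with earlier results of these data known.

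IP and input were compared with edgeR 4.0.16 (R 4.3.3, quasi-likelihood test, library size the listed reads, no factor), for sequences with at least 10 RPM in 2 libraries and for locus sets kept by filterByExpr. Benjamini-Hochberg adjustment ran over each whole table, with a threshold of 0.05. The SE of a log2 change was taken from the change and its F statistic. Shares were compared with exact permutation tests. On simulated data with 200 changed items, the test called 1 of 60 sequences at a 1.5-fold change, 20 of 74 at 2-fold and 62 of 66 at 4-fold, plus 4 unchanged ones. It called 2 of 64, 6 of 69 and 30 of 67 sets at these sizes and 0 unchanged ones.

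The sequences named are the 10 members with the most RPM in each group, the 5 largest called changes in each direction among those whose IPs both lay above, or both below, the inputs, and the 5 tested members with the most loci. The sets named are, of those with 2 or more loci, the 10 with the most RPM and the 5 largest called changes in each direction. Other steps used Python 3.11.15, numpy 2.4.6, pandas 2.3.3 and scipy 1.17.1. Alternatives were other library sizes and factors, DESeq2 1.42.0, other filters, thinned IPs, other definitions of a shared sequence, length ranges, the replicate number as a block and leaving out each library. Chosen after the data were seen were the classes by number of loci, sequences with a name without a note only, A at each position, the 5′ overlaps and the families by first 12 bases.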

Additional observations from a re-analysis of the deposited data

How the results depend on the processing

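The share of reads, first T, A at position 10 and mean length kept their direction under every alternative run on them. The share's difference between IP and input ranged from 2.18 percentage points (cluster reads as denominator) to 4.58 (without the 10 most abundant members), the first T difference between kinds from 0.838 (24 to 32 nt) to 3.48 (distinct sequences), that of A at position 10 from 9.21 (24 to 32 nt) to 18.1 (names with a note left out) and that of length from -0.331 (names with a note left out) to -0.0436 nt (24 to 32 nt). Leaving out 1 library gave 3.68 to 4.37, 1.48 to 1.74, 9.80 to 10.6 and -0.247 to -0.225. Rows with cluster names only are the rows used, so that alternative gives the same values.

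Counts of risen and fallen items moved most, over all items as well as over members. Over all 11786 sequences, 667 rose and 2727 fell with TMM factors, 198 and 2615 with DESeq2's own factors, and 2969 and 2277 with DESeq2 on listed reads. Over all 13248 sets these were 678 and 1522, 270 and 1052, and 783 and 754. Thinned IPs gave 825 and 289 of 3694 sets, and noted names left out 1032 and 74 of 4863. The counts that follow are of members and of sets of 2 or more loci. Of sequences, 186 rose with TMM factors, 59 with DESeq2's own size factors, 852 with DESeq2 on listed reads, 638 with noted names left out (then 12 fell), and 339 to 1368 without 1 library (183 to 212 fell). Of sets, 663 rose with TMM, 258 with DESeq2's own factors, 722 with DESeq2 on listed reads (718 fell), 751 with thinned IPs (262 fell), 820 with noted names left out (50 fell), and 128 to 2379 without 1 library (143 to 1156 fell). Noted names left out, and thinning, leave fewer items to test; the other causes were not tested. With no filter on low counts, edgeR called 0 sequences and 0 sets. At an unadjusted p under 0.05, 4036 of 144472 members rose and 6260 fell, 10296 in all. Over sequences of every kind 53459 of 667923 passed that level in either direction. Of 237084 sets of 2 or more loci, 2460 rose and 3443 fell, 5903 in all, beside 6138 of all 238040 sets. DESeq2 was not run on that table.

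The labels do not say whether equal replicate numbers pair an input with an IP. The deviations of same-numbered libraries correlated at 0.0758 over sequences and 0.0410 over sets, which neither shows nor excludes pairing. With the replicate number as a block, 1231 shared sequences rose and 207 fell, and 1112 sets of 2 or more loci rose and 804 fell. Over all items tested, 4410 sequences rose and 2313 fell, and 1207 sets rose and 841 fell.

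The changes that turned their sign did not pass the threshold with listed reads as library size. With TMM factors in edgeR and with DESeq2's own factors, however, some were called fallen. These were G (adjusted p = 0.00831 and 0.00277), H (0.0467 and 0.0263) and J (0.0156 and 0.00533). Among those that kept their sign, B (3.15e-05 and 1.1e-07), E (0.000134 and 2.91e-07) and I (0.0016 and 6.4e-05) were called fallen by both too. So were the set of chromosomes 1 and 6 (0.0144 and 0.0352) and the set of chromosomes 14, 2 and 4 (0.00211 and 0.0096). G was at -0.70 and -0.68 there. With TMM and DESeq2's own factors, F was at -0.42 and -0.40, H at -0.53 and -0.51, J at -0.64 and -0.61, L at -0.23 and -0.21, the set of chromosomes 3 and 8 at -0.32 and -0.30 and the set of F at -0.11 and -0.078. With cluster reads as library size, J was at -0.10 and the set of chromosomes 3 and 8 at -0.10. With thinned IPs, G was at 0.0071. Without input 1, G was at 0.09, J at -0.22 and the set of chromosomes 21, 23 and 6 at 0.04. Without IP 1, H was at -0.026, J at -0.024 and the set of chromosomes 3 and 8 at -0.055. Without IP 2, G was at 0.12 and the set of chromosomes 21, 23 and 6 at 0.13. Over the 4 libraries left out in turn, G ranged from -0.14 to 0.12, H from -0.026 to 0.30, J from -0.22 to 0.34 and the set of chromosomes 3 and 8 from -0.055 to 0.11. Depth limits the inputs, where 3 reads over both are 1.23 RPM against 0.135 RPM in the IPs.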
